A study of Homo sapiens with 6 samples.

Results

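The genes described are 10 genes of MHC class I antigen presentation: HLA-E, HLA-F, B2M, TAP1, TAP2, TAPBP, PSMB8, PSMB9, NLRC5 and ERAP1. They were taken by name, and every probe set that the platform annotation assigns to exactly 1 of these symbols was used. That gave 25 of the 54613 probe sets tested, and 10 of 19775 genes. The number of probe sets per gene ran from 1 for TAP1, PSMB8, PSMB9 and NLRC5 to 5 for ERAP1.

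MHC class I molecules carry peptides from inside the cell to its surface, where CD8 T cells and natural killer cells read them. Proteasomes, including an interferon-inducible form with the subunits PSMB8, PSMB9 and PSMB10, cut proteins into peptides, and the TAP1-TAP2 transporter moves these into the endoplasmic reticulum. There ERAP1 trims them, and TAPBP (tapasin) helps to load them onto a heavy chain bound to beta-2-microglobulin, the product of B2M. NLRC5 is a transcriptional coactivator of class I genes. Breast tumours, like other tumours, can lower this pathway, and interferons raise it.

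The arrays came from MDA-MB-231, an established human breast cancer cell line without oestrogen receptor. Cells had been transfected with a plasmid expressing HS3ST2, a heparan sulfate 3-O-sulfotransferase, and other cells with a control vector. Each group has 3 replicates, which the submitters call independent, and the labels name no other treatment. They do not say how long after transfection RNA was taken, or whether cells were selected or cloned, or transfected anew for each replicate. So p-values measure the spread between these arrays. The comparison asks which genes differ between the cells with the HS3ST2 plasmid and those with the control vector.

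All values are log2 values relative to each probe set's own median over the 6 arrays. They show differences between arrays, but levels of different genes cannot be compared, and neither can it be checked which genes were expressed in this line. The probe set for HS3ST2 itself was at 0.16, 0.04 and -0.04 in the arrays labelled HS3ST2, against -0.22, 0.17 and -0.11 in the control arrays. These ranges overlapped, and the difference was 0.11 ± 0.11 (SE, n = 3 per group, limma adjusted p = 0.597 over all probe sets). Whether it detects the plasmid's transcript is not given, so the arrays are called HS3ST2-labelled. Median absolute differences between 2 arrays ran from 0.160 to 0.193 across groups, and from 0.1 to 0.122 within a group. Ribosomal RNA control probe sets, 6 in number, had a median of 0.02, 0.16 and 0.74 in the HS3ST2-labelled arrays, against -0.20, -0.06 and -0.29 in the control arrays. Its part in the results was not tested, and values without HS3ST2 replicate 3, the array at 0.74, are given for each called gene of the 10.

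Upstream sequences are shown first because the promoters of class I genes are a classic meeting point of interferon-induced factors. RefSeq's promoter table (GRCh38.p14) had entries for 8 of the 10 genes, all but HLA-E and NLRC5. These 8 genes have 11 annotated starts, and the 250 bases upstream of each were searched on both strands. The core of the interferon-stimulated response element, GAAANNGAAA, stood upstream of 5 of these 8 genes: HLA-F, B2M, TAP1, TAP2 and TAPBP. That is 5 of the 11 windows, against 3.02% of all 35116 windows of this length. The last 180 bases before the start of these 5 genes follow, 5′ to 3′ on the gene's strand, with each match in capitals (overlapping matches run together, and a match on the opposite strand reads TTTCNNTTTC). They lie at chr6:29723254-29723433 (plus strand) for HLA-F, chr15:44711337-44711516 (plus) for B2M, chr6:32853705-32853884 (minus) for TAP1, chr6:32838740-32838919 (minus) for TAP2 and chr6:33314079-33314258 (minus) for TAPBP. The B2M stretch also lies within the annotated span of PATL2.
HLA-F: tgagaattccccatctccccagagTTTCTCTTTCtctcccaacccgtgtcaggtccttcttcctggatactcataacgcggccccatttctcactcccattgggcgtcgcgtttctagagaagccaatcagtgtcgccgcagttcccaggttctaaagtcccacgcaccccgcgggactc
B2M: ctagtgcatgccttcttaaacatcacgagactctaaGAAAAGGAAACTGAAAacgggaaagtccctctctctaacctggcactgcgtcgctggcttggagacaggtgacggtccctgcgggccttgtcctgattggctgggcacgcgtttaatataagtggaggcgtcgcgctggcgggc
TAP1: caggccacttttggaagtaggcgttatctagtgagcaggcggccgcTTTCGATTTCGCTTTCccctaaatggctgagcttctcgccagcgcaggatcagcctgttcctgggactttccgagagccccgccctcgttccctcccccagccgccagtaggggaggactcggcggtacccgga
TAP2: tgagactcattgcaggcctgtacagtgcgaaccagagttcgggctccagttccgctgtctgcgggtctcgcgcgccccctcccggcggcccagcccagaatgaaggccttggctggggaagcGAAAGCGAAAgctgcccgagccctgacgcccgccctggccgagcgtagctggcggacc
TAPBP: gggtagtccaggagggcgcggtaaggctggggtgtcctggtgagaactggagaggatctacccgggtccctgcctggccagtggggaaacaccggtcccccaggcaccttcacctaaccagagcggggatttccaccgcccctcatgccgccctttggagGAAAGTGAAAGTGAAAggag
The match began 156 bases upstream of the start in HLA-F and 58 in TAP2, and overlapping pairs began 144 and 138 bases upstream in B2M, 134 and 128 in TAP1, and 20 and 14 in TAPBP. The CCAAT box, CCAAT, was upstream of HLA-F, B2M, TAP1, PSMB9 and ERAP1, in 5 of the 11 windows, against 32% of all windows. The windows of TAP1 and PSMB9 overlap, and their CCAAT match is the same stretch of bases, counted once for each gene. The half-site of the cyclic AMP response element, TGACG, was upstream of B2M, TAP2, PSMB8 and PSMB9, in 4 of the 11 windows, against 21.2% of all windows. The gamma-activated site, TTCNNNGAA, was found for TAP1 and PSMB8, each time in an annotated promoter that starts inside the gene, so in 2 of the 11 windows, against 6.57% of all windows. A match is only a run of letters, and genes with the response element core are found below among those that rose, those that fell and those that did not pass.

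The 10 genes did not move as a block. Averaged over the probe sets of each gene, HLA-F, B2M and NLRC5 were higher and TAP1 and TAP2 were lower in the HS3ST2-labelled arrays at a limma adjusted p under 0.05 over all genes. The 5 genes HLA-E, TAPBP, PSMB8, PSMB9 and ERAP1 did not pass. All differences were moderate, from -0.39 for TAP2 to 0.44 for HLA-F. Called genes made up 50% of the 10, against 24.5% of all genes tested, with 30% higher against 11.5% and 20% lower against 13%. The 10 genes, and the lists further below, were chosen with earlier results of these data known. Their shares are therefore not those of a blind choice. Among the 25 probe sets, 4 were higher (16% against 7.9% of all probe sets) and 3 were lower (12% against 8.98%), so 28% were called against 16.9%. The median difference was 0.13 over the 10 genes and 0.01 over all genes. Groups did not overlap for 8 of the 10 genes, against 40.4% of all genes, with 6 higher (19.5% of all genes) and 2 lower (20.9%). They did not overlap for 14 of the 25 probe sets, against 34.1% of all, with 10 higher (16.6%) and 4 lower (17.4%).

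Counts over 10 genes turn on few arrays. With any 1 of the control arrays left out, or HS3ST2 replicate 1 or 2, the higher genes numbered 1 in place of 3. The lower genes numbered 1 in place of 2 without control replicate 2 or 3, or HS3ST2 replicate 2 or 3. Calls over all genes dropped as well with 1 array left out. The share called higher was 8.74% to 9.6% in place of 11.5%, and the share called lower was 10.2% to 10.9% in place of 13%. Without HS3ST2 replicate 1, the higher probe sets numbered 2 in place of 4, with 5.82% of all probe sets higher in place of 7.9%. TAP2 and HLA-F were called at the gene level in all 6 such fits. All 4 higher probe sets have names ending in _x_at or _s_at, the platform's marks for probes that can pair with more than 1 transcript, while 2 of the 3 lower ones end in plain _at.

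**Figure D1:**
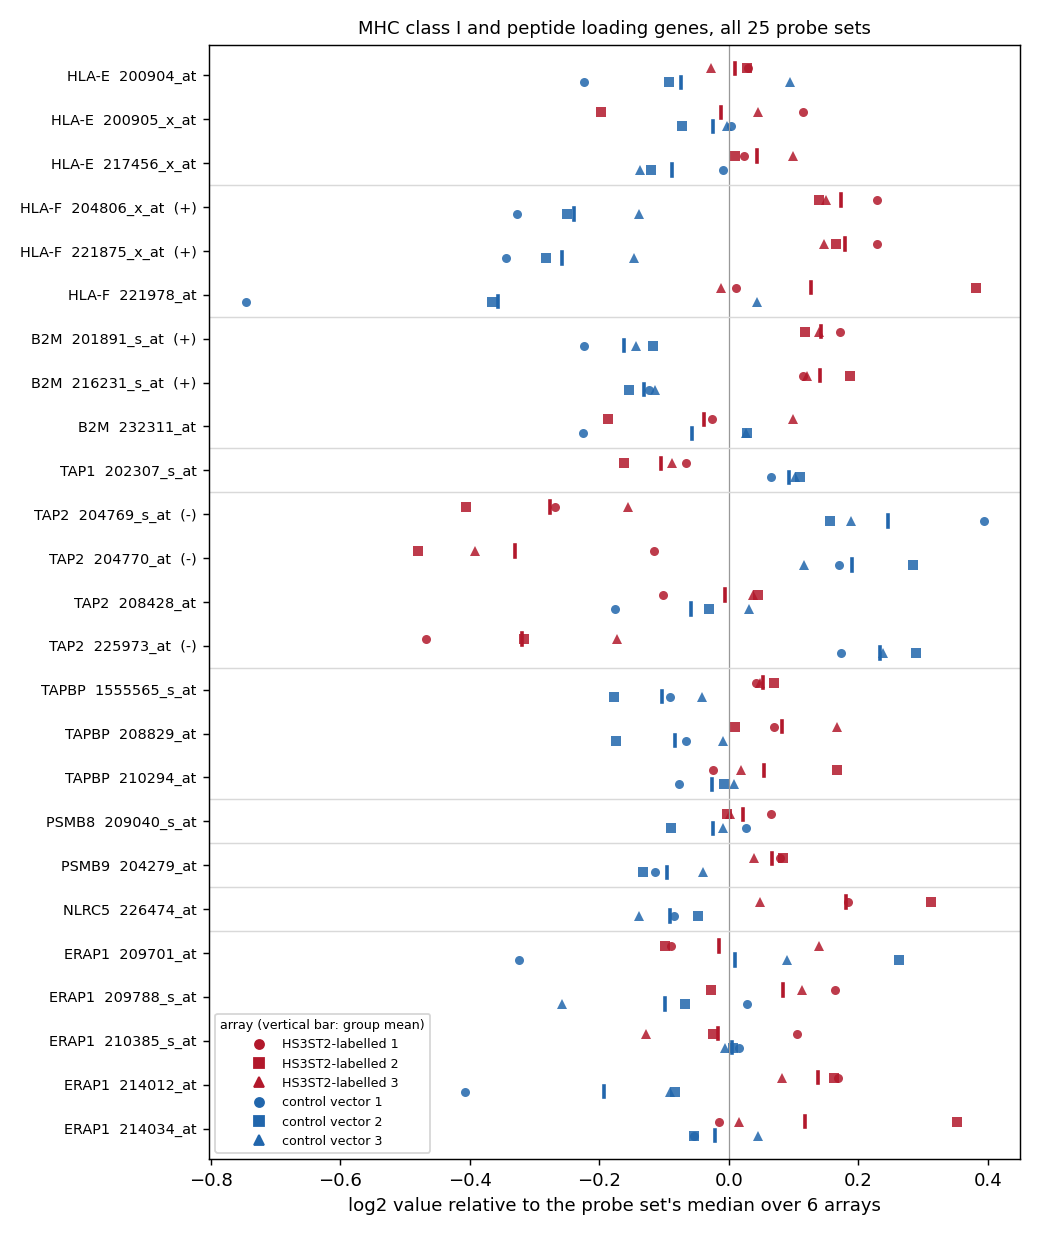
Every probe set of the 10 genes (rows, (+) called higher and (-) called lower at a limma adjusted p under 0.05 over all probe sets), with log2 values relative to the probe set's median on the x axis. Red marks are HS3ST2-labelled arrays, blue marks control vector arrays, the shape gives the replicate and bars are group means. TAP2 has 3 probe sets with red left of blue by 0.52 to 0.55, and HLA-F and B2M have 2 each with red right of blue.

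HLA-F, a non-classical class I heavy chain with little polymorphism, showed the largest rise of the 10 genes. Its probe set 204806_x_at read 0.23, 0.14 and 0.15 in the HS3ST2-labelled arrays, against -0.33, -0.25 and -0.14 in the control arrays. Its probe set 221875_x_at read 0.23, 0.17 and 0.15 in the HS3ST2-labelled arrays, against -0.34, -0.28 and -0.15 in the control arrays. In both, every HS3ST2-labelled array lay above every control array. The differences were 0.41 ± 0.07 and 0.44 ± 0.07 log2 (SE, n = 3 per group, limma adjusted p = 0.00782 and 0.0063). The only HLA-F probe set without the _x_at ending, 221978_at, read 0.01, 0.38 and -0.01 in the HS3ST2-labelled arrays, against -0.75, -0.37 and 0.04 in the control arrays. There the groups overlapped, since control replicate 3 lay above 2 of the HS3ST2-labelled arrays. Its difference of 0.48 ± 0.20 had a wide interval, 0.03 to 0.94, and did not pass (limma adjusted p = 0.15). It was 0.29 without control replicate 1 (limma adjusted p = 0.34), and 0.68 without control replicate 3, where it passed (0.0369). Over the 3 probe sets HLA-F was higher by 0.44 ± 0.10 (limma adjusted p = 0.0123), and by 0.48 without HS3ST2 replicate 3 (limma adjusted p = 0.0262). With probe sets ending in _x_at and _s_at set aside, the gene was not called (limma adjusted p = 0.121). A probe set for HLA-F-AS1, an antisense transcript from the HLA-F locus, was higher by 0.52 ± 0.14 (limma adjusted p = 0.0345 over all probe sets). Another differed by 0.28 ± 0.11 and did not pass (limma adjusted p = 0.123).

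Heavy chain genes are so alike that their probes can share signal, so the HLA-F values are set beside those of HLA-B, HLA-C and HLA-G, the other heavy chain genes measured. HLA-B and HLA-C are classical, highly polymorphic heavy chains, and HLA-G is a non-classical one known from the placenta. All 11 probe sets of these 3 genes end in _x_at, and all 11 were higher in the HS3ST2-labelled arrays, by 0.28 to 0.58 log2. Over its probe sets HLA-B was higher by 0.55 ± 0.07, HLA-C by 0.44 ± 0.07 and HLA-G by 0.37 ± 0.07 (SE, n = 3 per group, limma adjusted p up to 0.00694 over all genes). HS3ST2 replicate 1 was the highest array in all 11 probe sets, and control replicate 1 was the lowest in 10. The 2 HLA-F probe sets with the _x_at ending had the same highest and lowest arrays. In 221978_at the lowest was control replicate 1 as well, but the highest was HS3ST2 replicate 2. How far HLA-F has a rise of its own, apart from signal shared with these genes, was not tested.

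**Figure D2:**
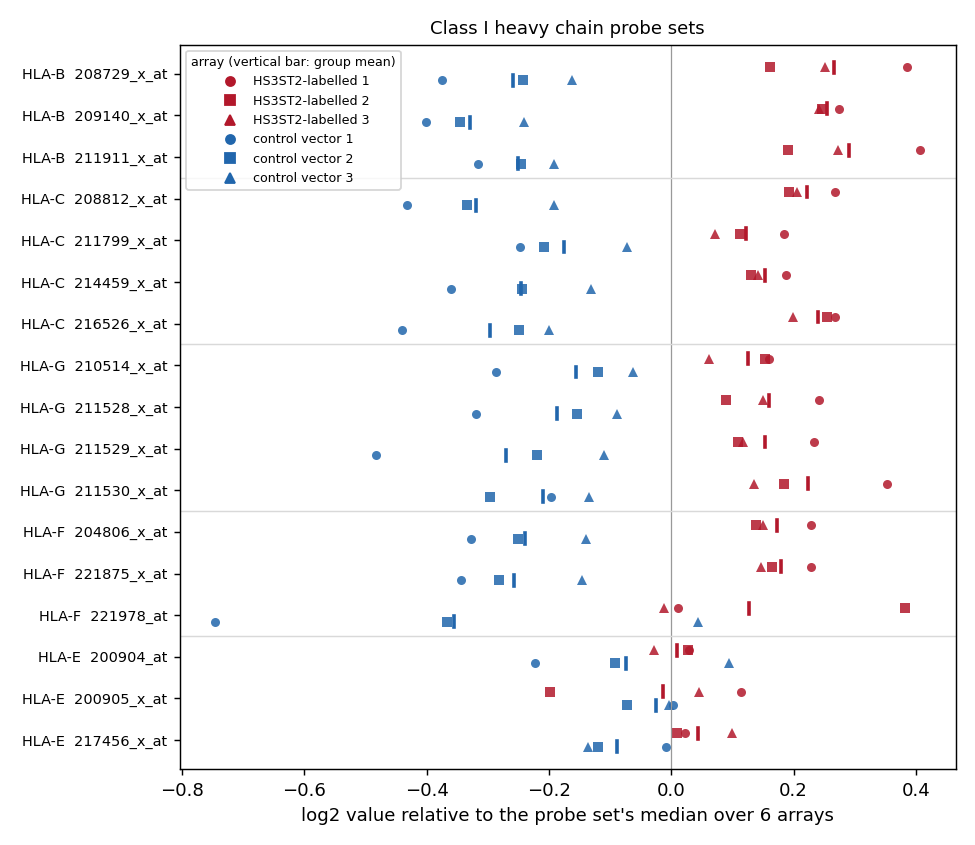
All probe sets of the class I heavy chain genes HLA-B, HLA-C, HLA-G, HLA-F and HLA-E (rows), with log2 values relative to the probe set's median on the x axis. Red marks are HS3ST2-labelled arrays, blue marks control vector arrays, shapes give the replicate and bars are group means. The 11 probe sets of HLA-B, HLA-C and HLA-G and 2 of HLA-F separate the groups without overlap, and only 1 of 3 HLA-E probe sets does.

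HLA-E, whose product presents leader peptides of other heavy chains to natural killer receptors, did not pass. In its probe set 200904_at the HS3ST2-labelled arrays ran from -0.03 to 0.03, inside the control arrays' range from -0.22 to 0.09. The probe set 217456_x_at read 0.02, 0.01 and 0.10 in the HS3ST2-labelled arrays, against -0.01, -0.12 and -0.14 in the control arrays, and there the groups did not overlap (0.13 ± 0.07, limma adjusted p = 0.259). Over its 3 probe sets the difference was 0.08 ± 0.06 with a 95% interval from -0.05 to 0.20 (SE, n = 3 per group, limma adjusted p = 0.386). This interval lies below that of HLA-F, 0.22 to 0.67, but the difference between the 2 genes was not tested.

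B2M, the invariant light chain needed for class I molecules to reach the surface, was higher in 2 of its 3 probe sets. The probe set 201891_s_at read 0.17, 0.12 and 0.14 in the HS3ST2-labelled arrays, against -0.22, -0.12 and -0.14 in the control arrays. The probe set 216231_s_at read 0.11, 0.19 and 0.12 in the HS3ST2-labelled arrays, against -0.12, -0.15 and -0.11 in the control arrays. Neither showed any overlap, and the differences were 0.30 ± 0.06 and 0.27 ± 0.06 log2 (SE, n = 3 per group, limma adjusted p = 0.0159 and 0.0217). The remaining probe set, 232311_at, read -0.03, -0.19 and 0.10 in the HS3ST2-labelled arrays, against -0.23, 0.03 and 0.03 in the control arrays. Here the groups overlapped, and the difference was 0.02 ± 0.10 with an interval from -0.22 to 0.26. Over the 3 probe sets B2M was higher by 0.20 ± 0.06 (limma adjusted p = 0.0368). This call was lost when any 1 array was left out (limma adjusted p = 0.0603 to 0.112, the highest without HS3ST2 replicate 3, difference 0.18), and 201891_s_at lost its call without HS3ST2 replicate 1 (0.0548) or 3 (0.052). The call of 216231_s_at was lost without any 1 array as well (limma adjusted p up to 0.0774).

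TAP2, a subunit of the peptide transporter, showed the largest fall of the 10 genes. Its probe set 225973_at read -0.47, -0.32 and -0.17 in the HS3ST2-labelled arrays, against 0.17, 0.29 and 0.24 in the control arrays. Its probe set 204769_s_at read -0.27, -0.41 and -0.16 in the HS3ST2-labelled arrays, against 0.39, 0.16 and 0.19 in the control arrays. Its probe set 204770_at read -0.12, -0.48 and -0.39 in the HS3ST2-labelled arrays, against 0.17, 0.28 and 0.12 in the control arrays. In all 3 the HS3ST2-labelled arrays lay below every control array. The differences were -0.55 ± 0.09, -0.52 ± 0.10 and -0.52 ± 0.10 log2 (SE, n = 3 per group, limma adjusted p = 0.0048, 0.00833 and 0.0128), and that of 204770_at missed the threshold without control replicate 2 (limma adjusted p = 0.0526). These are ratios of 0.682 to 0.697 on the linear scale.

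The TAP2 probe set 208428_at, which the platform pairs with another TAP2 transcript record, went a different way. It read -0.10, 0.05 and 0.04 in the HS3ST2-labelled arrays, against -0.18, -0.03 and 0.03 in the control arrays, with overlap and a difference of 0.05 ± 0.08 (interval -0.14 to 0.24). Over all 4 probe sets TAP2 fell by 0.39 ± 0.05 log2 (SE, limma adjusted p = 0.00149), and its difference was -0.42 without HS3ST2 replicate 3 (limma adjusted p = 0.00381). Over the fits with 1 array left out it ran from -0.42 to -0.36.

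TAP1, the other transporter subunit, has a single probe set. It read -0.07, -0.16 and -0.09 in the HS3ST2-labelled arrays, against 0.07, 0.11 and 0.10 in the control arrays, with no overlap. The difference was -0.20 ± 0.05 in the fit over genes (SE, n = 3 per group, limma adjusted p = 0.0279), but the same values did not pass over probe sets (limma adjusted p = 0.0755). The call over genes was lost without control replicate 2 (0.0836) or 3 (0.0762), or HS3ST2 replicate 2 (0.0938) or 3 (0.0638, difference -0.21). Taking the TAP2 value from the TAP1 value within each array gave 0.17, 0.13 and 0.08 in the HS3ST2-labelled arrays, against -0.07, -0.06 and -0.04 in the control arrays. The groups did not overlap in this difference, 0.19 log2 (exact two-sided permutation p = 0.1, which is the lowest possible with 3 arrays a group).

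Beside TAP2 and TAP1 lie genes that did not pass. In the RefSeq annotation the protein-coding order on chromosome 6 is HLA-DOB, TAP2, PSMB8, TAP1, PSMB9 and HLA-DMB. In that order the differences were -0.18 for HLA-DOB, -0.39 for TAP2, 0.05 for PSMB8, -0.20 for TAP1, 0.16 for PSMB9 and -0.12 for HLA-DMB, of which TAP2 and TAP1 were called. TAP1 and PSMB9 are read in opposite directions from start sites that face away from each other, and their values had opposite signs. In all, 7 of the 10 genes lie on chromosome 6, with B2M on chromosome 15, NLRC5 on 16 and ERAP1 on 5.

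**Figure D3:**
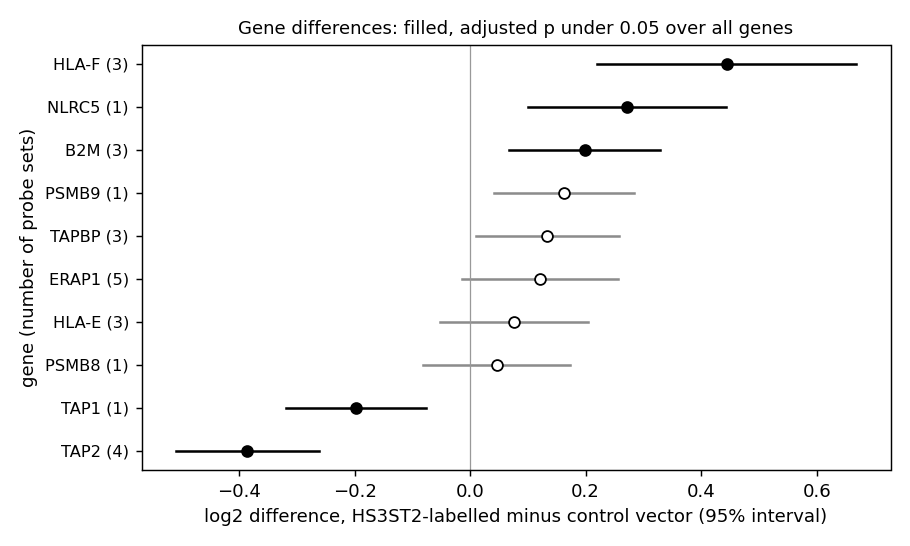
The 10 genes in order of their log2 difference, HS3ST2-labelled minus control vector, on the x axis, with 95% intervals and the number of probe sets averaged in brackets. Filled points have a limma adjusted p under 0.05 over all genes; HLA-F, NLRC5 and B2M lie right of 0, and TAP1 (-0.20) and TAP2 (-0.39) lie left of it.

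TAPBP, which bridges the transporter and the empty heavy chain, did not pass. Its 3 probe sets differed by 0.08 to 0.17 log2, and in 1555565_s_at and 208829_at every HS3ST2-labelled array lay above every control array. In 1555565_s_at the values were 0.04, 0.07 and 0.05 in the HS3ST2-labelled arrays, against -0.09, -0.18 and -0.04 in the control arrays. The gene's difference was 0.13 ± 0.05 (SE, n = 3 per group) with a 95% interval of 0.01 to 0.26 (limma adjusted p = 0.113).

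ERAP1, the aminopeptidase that trims peptides to class I length, had 5 probe sets that differed in sign, from -0.02 to 0.33 log2. The highest was 214012_at, which read 0.17, 0.16 and 0.08 in the HS3ST2-labelled arrays, against -0.41, -0.08 and -0.09 in the control arrays. Here the groups did not overlap, but control replicate 1 stood well below the other arrays and the probe set did not pass (limma adjusted p = 0.0582). In 209701_at the control arrays alone ran from -0.32 to 0.26 and enclosed all HS3ST2-labelled arrays. The gene's difference was 0.12 ± 0.06 (SE, n = 3 per group, interval -0.01 to 0.26, limma adjusted p = 0.182), and it was 0.077 without control replicate 1 (limma adjusted p = 0.403).

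Of the inducible proteasome subunits, PSMB9 and PSMB8 did not pass while PSMB10 rose. PSMB9 read 0.08, 0.08 and 0.04 in the HS3ST2-labelled arrays, against -0.11, -0.13 and -0.04 in the control arrays, a difference of 0.16 ± 0.05 log2 without overlap (SE, n = 3 per group, limma adjusted p = 0.0571 over genes). PSMB8 overlapped between groups, with a difference of 0.05 ± 0.06 and an interval from -0.08 to 0.17, and the difference was 0.013 without control replicate 2 and 0.024 without HS3ST2 replicate 1. A probe set for PSMB8-AS1, an antisense transcript from the same locus, was higher by 0.48 ± 0.11 (limma adjusted p = 0.0205 over all probe sets), while another differed by 0.03 ± 0.24 and did not pass.

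PSMB10, the inducible subunit outside the MHC, was at 0.29, 0.40 and 0.50 in the HS3ST2-labelled arrays, against -0.29, -0.43 and -0.36 in the control arrays. It rose by 0.76 ± 0.07 log2 (SE, n = 3 per group, limma adjusted p = 0.000204). The constitutive subunits that the inducible ones replace went the other way. PSMB6 (replaced by PSMB9) fell by 0.35 ± 0.06, PSMB7 (replaced by PSMB10) fell by 0.50 ± 0.07, and PSMB5 (replaced by PSMB8) fell by 0.33 ± 0.05, all called in every fit with 1 array left out.

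Each inducible subunit was therefore higher relative to its constitutive counterpart in the HS3ST2-labelled arrays. PSMB9 minus PSMB6 within an array was 0.25, 0.20 and 0.23 in the HS3ST2-labelled arrays, against -0.36, -0.25 and -0.23 in the control arrays. PSMB10 minus PSMB7 was 0.44, 0.76 and 0.75 in the HS3ST2-labelled arrays, against -0.59, -0.70 and -0.51 in the control arrays. PSMB8 minus PSMB5 was 0.28, 0.12 and 0.17 in the HS3ST2-labelled arrays, against -0.17, -0.21 and -0.19 in the control arrays. No pair overlapped between groups. The shifts were 0.51, 1.25 and 0.38 log2, each with an exact two-sided permutation p of 0.1, the lowest possible here, also after adjustment over these pairs and that of TAP1 and TAP2. These within-array differences were chosen after the values of the single genes were seen, and for PSMB8 the shift rests mostly on the fall of PSMB5.

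**Figure D4:**
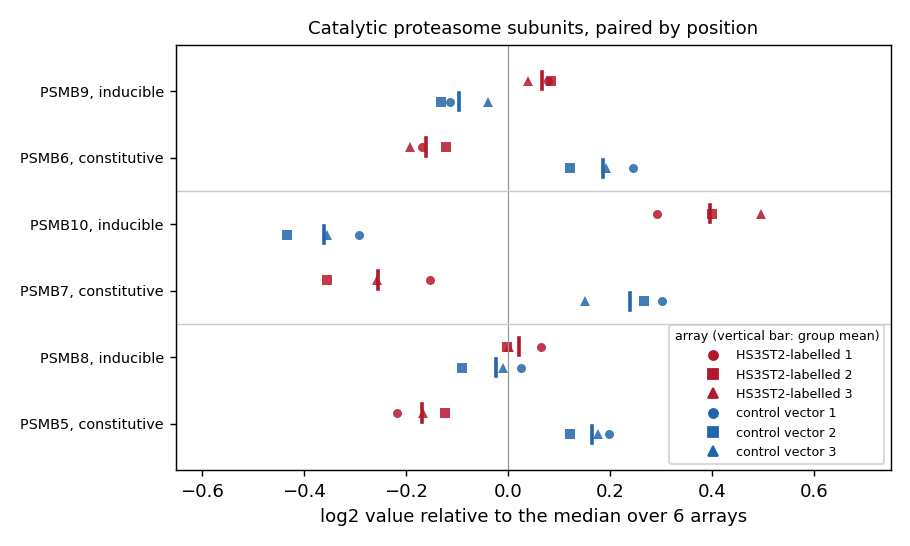
The 3 inducible proteasome subunits, each above the constitutive subunit it replaces (rows), with log2 values relative to the median over the 6 arrays on the x axis. Red marks are HS3ST2-labelled arrays, blue marks control vector arrays, and bars are group means. Red lies left of blue for PSMB6, PSMB7 and PSMB5 and right of blue for PSMB10 and PSMB9, and the groups overlap for PSMB8.

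NLRC5, the coactivator of class I genes, had 1 probe set, which read 0.18, 0.31 and 0.05 in the HS3ST2-labelled arrays, against -0.08, -0.05 and -0.14 in the control arrays. The groups did not overlap, and HS3ST2 replicate 3 was the lowest of its group. The difference was 0.27 ± 0.07 log2 over genes (SE, n = 3 per group, limma adjusted p = 0.0313), while over probe sets it did not pass (limma adjusted p = 0.0631). The gene call was kept without HS3ST2 replicate 3 (0.34, limma adjusted p = 0.0152). It was lost without control replicate 1 (0.0719), 2 (0.0608) or 3 (0.093), or HS3ST2 replicate 1 (0.0807) or 2 (0.0876).

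Of 29 measured genes for transcription of class I genes and interferon signalling, 7 rose, 4 fell and 18 did not pass, so 37.9% were called against 24.5% of all genes. The median difference of the list was -0.04, against 0.01 over all genes. NLRC5 acts with the RFX complex, and the subunits of that complex split. RFXAP rose by 0.64 ± 0.06 log2 and RFXANK by 0.36 ± 0.06, while RFX5 fell by 0.22 ± 0.06 (SE, n = 3 per group, limma adjusted p = 0.000317, 0.00396 and 0.0234). The RFX5 call was lost without control replicate 2 or 3, or HS3ST2 replicate 2 or 3 (limma adjusted p = 0.0529 to 0.0777). The 2 probe sets of RFXAP differed in size, 0.29 and 0.99, and 1 of them was called. Neither of the 2 RFX5 probe sets, at -0.25 and -0.19, was called.

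IRF1, an interferon-induced activator of class I promoters, rose by 0.31 ± 0.05 log2, with 1 of its 2 probe sets called (0.43, against 0.18 in the other). IRF9, the DNA-binding part of the type I interferon complex, rose by 0.46 ± 0.07, and the receptor kinase JAK2 rose by 0.63 ± 0.07 (SE, n = 3 per group, limma adjusted p up to 0.00407 for these 3). Of the JAK2 probe sets, 2 of 3 were called. NFYA rose by 0.26 ± 0.06 with 3 of its 6 probe sets called (SE, limma adjusted p = 0.0143). NFYB rose by 0.20 ± 0.05 with 2 of its 4 called (SE, limma adjusted p = 0.0187). Besides RFX5, the genes of this list that fell were the receptor kinase JAK1, by 0.29 ± 0.06 with 3 of its 5 probe sets called, IFNGR2, a chain of the interferon gamma receptor, by 0.19 ± 0.06, and the histone methyltransferase EZH2, by 0.33 ± 0.07 (SE, n = 3 per group, limma adjusted p = 0.00842, 0.0425 and 0.00806). The IFNGR2 call was lost without any 1 array (limma adjusted p = 0.0516 to 0.11), and its only probe set was not called in the fit over probe sets. The list's count of lower genes was 2 in place of 4 without control replicate 2 or 3, or HS3ST2 replicate 2 or 3.

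Genes of peptide supply, loading and quality control were split. Of 19 measured, 4 rose, 3 fell and 12 did not pass (36.8% called against 24.5% of all genes), with a median difference of -0.0024. Besides PSMB10, PDIA3, the oxidoreductase ERp57 of the loading complex, rose by 0.36 ± 0.05 log2, with all 3 probe sets called. PSME3, a proteasome activator subunit of the nucleus, fell by 0.38 ± 0.05, and BLMH, a cytosolic aminopeptidase, fell by 0.88 ± 0.06 (SE, n = 3 per group, limma adjusted p up to 0.002). The count of higher genes was 2 in place of 4 when any 1 control array, HS3ST2 replicate 1 or HS3ST2 replicate 3 was left out.

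Other loading genes did not pass. CALR, the chaperone calreticulin, differed by 0.16 ± 0.11 log2 (interval -0.09 to 0.41), with 0.034 without control replicate 1 and 0.25 without control replicate 3. TAPBPL, a tapasin-related editor, differed by 0.18 ± 0.08 (interval -0.01 to 0.36). ERAP2, the partner of ERAP1, differed by 0.18 ± 0.06 (limma adjusted p = 0.0733), and its 5 probe sets ran from -0.16 to 0.57. PSME1, an interferon-inducible proteasome activator subunit, was at -0.16 ± 0.06 (SE, n = 3 per group, limma adjusted p = 0.114).

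Among 12 measured genes of the MHC class II pathway, 2 rose, 2 fell and 8 did not pass (33.3% called against 24.5% of all genes, median difference 0.02). CTSS, cathepsin S, had the largest difference of all the genes listed for this pathway and its neighbours, 1.24 ± 0.06 log2, with 3 of 3 probe sets called. LGMN, another lysosomal protease, rose by 0.40 ± 0.07, and CTSL, cathepsin L, fell by 0.30 ± 0.06. HLA-DRA, a class II chain, fell by 0.47 ± 0.13 (SE, n = 3 per group, limma adjusted p = 0.0295), with 1 of its 2 probe sets called (-0.58, against -0.35 in the other). The HLA-DRA gene call did not hold with HS3ST2 replicate 1 (0.0905), HS3ST2 replicate 3 (0.09) or control replicate 3 (0.0555) left out. CIITA, the class II counterpart of NLRC5, differed by 0.05 ± 0.05 (interval -0.06 to 0.17) and did not pass.

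Of 17 class I-like molecules and ligands of natural killer and T cell receptors, 2 rose, 4 fell and 11 did not pass (35.3% called against 24.5% of all genes, median difference -0.0049). FCGRT, the heavy chain of the neonatal Fc receptor, which also pairs with B2M, rose by 0.86 ± 0.14 log2. CD274, the checkpoint ligand PD-L1, fell by 0.69 ± 0.05 with both probe sets called, and PVR, a ligand of DNAM-1, fell by 0.47 ± 0.07. MICA, a stress-induced NKG2D ligand, fell by 0.33 ± 0.05 (SE, n = 3 per group, limma adjusted p up to 0.00283 for these 4). The count of higher genes was 1 in place of 2 without any 1 array other than control replicate 2.

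Leukocytes carry much class I and inducible proteasome, so their markers were read in the same arrays. Of 16 measured, 1 was called (6.25% against 24.5% of all genes), with a median difference of 0.05, and 2 were called without HS3ST2 replicate 2. The called gene was GNLY, granulysin, which was higher by 0.74 ± 0.06 log2 (SE, n = 3 per group, limma adjusted p = 0.000132). The mean over the list ran from 0.02 to 0.07 in the HS3ST2-labelled arrays, against -0.10 to -0.01 in the control arrays. Of the 16 markers, 14 had a positive difference. PTPRC, the pan-leukocyte marker CD45, was not among these, at -0.08 ± 0.07 (SE), and did not pass. Whether any of these markers is expressed at all cannot be read from centred values, and their part in the class I results was not tested.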

How the data were processed

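Per the submitters' processing notes, the authors used RMA, which corrects background, equalises array distributions and summarises probes as log2 values. The deposited log2 values had a median of 0 over the 6 arrays for every probe set (largest deviation 4.8e-07), so the table had also been centred per probe set, with a tool that no source used here names. The log base is not stated and was taken as 2. Arrays give no counts, and their number limits the precision.

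From the 54675 probe sets, 62 Affymetrix controls were set aside. The platform annotation gave 1 symbol for 41091 of the rest, several for 1801 and none for 11721. HS3ST2-labelled and control arrays were compared with limma 3.58.1 (lmFit, eBayes, R 4.3.3), without covariates, over 54613 probe sets and over 19775 genes (mean of a gene's probe sets). Benjamini-Hochberg adjustment ran over each whole table, with a threshold of 0.05. Differences are HS3ST2-labelled minus control with moderated standard errors and 95% intervals. The code was tested on simulated arrays. The 10 genes and the lists were chosen with earlier results of these data known. Named genes are the 10, up to 4 called genes of each list with the smallest p, and genes fixed by name for their role. JAK1, IFNGR2, EZH2, NFYA, NFYB, PSMB8-AS1, HLA-F-AS1, PTPRC, HLA-DOB, HLA-DMB and the within-array differences were added after their values were seen. Same-numbered arrays deviated together with correlations of 0.15, 0.04 and -0.08, so the numbers were not taken as pairs. Results were also computed with a replicate block, without each array in turn, and with quantile normalization, median centring, array weights, robust eBayes, other thresholds, no probe sets ending in _x_at or _s_at, or only the most variable probe set of a gene. A filter on dim probe sets needs levels and was not run. Promoter sequences are from RefSeq. Some genes of the lists were not analysed here.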

Additional observations from a re-analysis of the deposited data

How the results depend on the processing

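Quantile normalization, median centring, array weights and robust eBayes left the counts of called member genes and probe sets within 1.5 times. Over the fits with 1 array left out, 1 to 2 member genes were higher and 1 to 2 lower, and 2 to 4 member probe sets were higher. With a limma adjusted p under 0.01, 0 member genes (5 at an unadjusted p under 0.05) and 2 member probe sets were higher and 1 member gene was lower. At that threshold 6.5% of all genes and 4.04% of all probe sets were higher, and 7.86% of all genes were lower. Without the _x_at and _s_at probe sets, 1 member gene and 0 member probe sets were higher (limma, 4 at an unadjusted p under 0.05, 6.62% of all such probe sets called higher) and 1 member gene was lower, since TAP1 and PSMB8 then have no probe set. In that setting 12 genes of the other lists were higher and 10 lower, in place of 19 and 16. Of all genes, 9.75% were higher and 9.71% lower there. With only the most variable probe set of each gene, 2 member genes were higher and 1 lower: HLA-F (limma adjusted p = 0.121), NLRC5 (0.0549) and TAP1 (0.0719) lost their calls, B2M and TAP2 were still called, and ERAP1 gained one (0.33, 0.0482). Of all genes, 12.4% were higher and 13.9% lower in that fit. With a replicate block, B2M (limma adjusted p = 0.066) and TAP1 (0.0636) lost their gene calls, although the numbers do not pair the arrays. This left 1 member gene lower, against 11.7% of all genes. Changes of sign were limited to 12 fits of member probe sets that were called in none of them. They were 200905_x_at of HLA-E (-0.052 to 0.1 with 1 array left out), 232311_at of B2M (-0.065 to 0.094, and -0.0042 with array weights), 208428_at of TAP2 (-0.0066 to 0.099), 209701_at of ERAP1 (-0.19 to 0.10) and 210385_s_at of ERAP1 (-0.082 to 0.035). The cause of these changes was not tested. Of 635 values of the 43 named genes over all settings, 583 kept their direction and their side of the threshold, as did 307 of 338 values of member probe sets. Many of the 43 were named because their p was among the smallest of their list, so this share does not describe the 10 genes. With 1 array left out, B2M kept its gene call in 0 of 6 fits, NLRC5 in 1 and TAP1 in 2, while HLA-F and TAP2 kept theirs in all 6. Without levels, signal over background cannot be judged.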
